A study of Mus musculus with 8 samples.

Results

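The genes described here encode the minichromosome maintenance (MCM) helicase and its closest partners in DNA replication: Mcm2, Mcm3, Mcm4, Mcm5, Mcm6, Mcm7, Mcm8, Mcm10, Cdc45 and Pcna. They were taken by symbol from the authors' expression table, which held all 10 among 22744 genes, and all 10 passed the filter on low values that left 16634 genes for testing. RNA came from whole testis 8 days after birth (postnatal day 8, P8): 3 libraries of Dmrt6 null animals and 3 of wild-type animals, all C57BL/6. Dmrt6 is listed in the table as Dmrtb1 and encodes DMRT6, a DNA-binding protein of male germ cells. A further pair of libraries, 1 of DMRT6 chromatin immunoprecipitation (ChIP) and 1 of input, came from adult wild-type testis on a C57BL/6 or mixed background and gave the authors 14862 peaks. How the null allele was made, and whether a library pooled several animals, was not given in the sources used here.

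Before a cell copies its DNA, the origin recognition complex with CDC6 and CDT1 loads a ring made of MCM2 to MCM7 onto each origin, a step called licensing. In S phase the kinase CDC7 and the MCM10 protein help to switch that ring on, and CDC45 and the GINS complex join it to form the active helicase. PCNA is the sliding clamp that holds DNA polymerases on the template, while MCM8 is a related helicase that acts in recombination rather than in licensing. In the P8 testis spermatogonia are dividing and the first germ cells approach the last S phase before meiosis, while Sertoli cells also still divide.

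The design asks how expression in the young testis differs without DMRT6, and which sites the protein occupies in adult testis. The libraries held 26.2, 27.4 and 26.3 M reads in null replicates 1, 2 and 3, against 23.8, 29.0 and 27.5 M in wild-type replicates 1, 2 and 3. Dmrtb1 had 14, 25 and 26 reads in the null libraries, against 194, 510 and 254 in the wild-type libraries, so each library matched its label. Its difference was -3.78 log2 CPM (SE 0.36), with a Benjamini-Hochberg adjusted p of 0.0516 in limma-trend. Of the tested genes 0.00601%, which is 1 gene, passed an adjusted p of 0.05. In whole tissue, fewer cells that express a gene and less of its RNA per cell cannot be told apart.

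None of the 10 replication genes passed the threshold between null and wild type: limma-trend called 0, voom on the recovered reads called 0, and 1 of 10, Pcna, had an unadjusted p below 0.05, a level reached by 3.47% of tested genes. The differences ran from -0.28 for Pcna to 0.21 for Mcm2 on the log2 CPM scale, with 8 of 10 below 0 and a median of -0.05, where the median over all tested genes was 0.01. The 3 null libraries lay wholly below the 3 wild-type libraries for Pcna, Mcm7 and Mcm10, which is 3 of 10 members, against 6.02% of all tested genes. They lay wholly above them for 0 of 10, against 5.06% of all tested genes. With null replicate 1, 2 or 3 left out, 3, 4 and 3 members lay wholly below, against 11.2%, 18.4% and 8.40% of all tested genes. DMRT6 peaks in the adult lay at the 5' ends of Pcna, Mcm6 and Mcm4. These 3 of 10 had a peak within 1 kb, against 16.0% of all tested genes. The same 3 had one within 10 kb, against 31.2%. Of all peaks, 95.4% scored higher than that at Mcm6 and 97.4% higher than that at Mcm4.

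Promoter sequences are shown for Pcna and Mcm6, the pair of members with a 5' end peak and an entry in the RefSeq promoter table. Mcm5 and Mcm3 are also shown, from the members with no peak within 50 kb. The nearest peak of Mcm5 lies just past that limit, at 50.2 kb. Mcm2, Mcm8 and Cdc45 likewise had no peak within 50 kb and are not shown. Each sequence is the stretch of 250 bases before the RefSeq start in GRCm38.p6, written 5′ to 3′ on the gene's own strand. Capitals mark the CCAAT box, bound by the factor NF-Y, on either strand (ATTGG on the other), and 4 forms of the E2F site, TTTCGCGC, TTTGGCGC, TTTCCCGC and TTTGGCGG, also on either strand. E2F proteins are textbook regulators of S-phase genes. Overlapping E2F matches are run together. Mcm6 lies at chr1:128359706-128359955, Mcm3 at chr1:20820313-20820562 and Pcna at chr2:132253181-132253430, all on the minus strand, and Mcm5 at chr8:75109259-75109508 on the plus strand.
Pcna: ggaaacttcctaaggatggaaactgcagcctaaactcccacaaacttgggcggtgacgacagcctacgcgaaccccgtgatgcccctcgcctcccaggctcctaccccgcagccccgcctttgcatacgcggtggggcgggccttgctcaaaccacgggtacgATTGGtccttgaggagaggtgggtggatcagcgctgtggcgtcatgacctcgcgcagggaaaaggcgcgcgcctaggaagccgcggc
Mcm6: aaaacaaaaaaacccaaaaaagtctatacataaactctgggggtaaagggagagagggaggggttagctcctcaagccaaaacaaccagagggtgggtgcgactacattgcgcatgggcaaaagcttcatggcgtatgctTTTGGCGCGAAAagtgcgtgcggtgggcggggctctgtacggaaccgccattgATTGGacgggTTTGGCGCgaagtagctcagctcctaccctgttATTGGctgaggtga
Mcm5: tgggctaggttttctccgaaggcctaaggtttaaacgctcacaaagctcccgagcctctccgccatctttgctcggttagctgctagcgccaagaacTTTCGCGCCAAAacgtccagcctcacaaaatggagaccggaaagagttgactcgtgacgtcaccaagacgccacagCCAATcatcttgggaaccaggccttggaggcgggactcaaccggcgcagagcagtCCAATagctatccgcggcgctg
Mcm3: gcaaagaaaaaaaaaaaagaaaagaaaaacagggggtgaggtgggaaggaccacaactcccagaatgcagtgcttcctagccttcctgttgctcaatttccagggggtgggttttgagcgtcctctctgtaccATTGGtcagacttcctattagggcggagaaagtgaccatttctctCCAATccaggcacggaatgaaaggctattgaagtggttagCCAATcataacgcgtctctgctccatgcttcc

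A CCAAT box stood in all 10 promoter windows that the table holds for 9 of the members (Mcm7 has 2 windows and Mcm4 none), and in 33.9% of all 32851 windows. Mcm3 had 3 such boxes, Mcm5 and Mcm6 had 2 each, and Pcna had 1. Mcm2, Mcm8 and Cdc45, whose windows are not printed, also had 1 each. An E2F form was found in 3 of the 10 windows, against 1.96% of all windows. They belong to Mcm5, Mcm6 and Mcm7, the last with 1 of its 2 windows. In Mcm6 the E2F matches end 102, 98 and 39 bases before the start, so they interleave with the CCAAT boxes that end 52 and 9 bases before it. The core ACANTGT, a shortened form of the palindrome that DMRT proteins bind, was searched on both strands and was in none of the 10 windows, while 6.47% of all windows hold it. GGGCGG, the GC box, was found in 8 of the 10 windows, from 7 of the 9 genes, and in 32.7% of all windows. These matches describe letters and show no bound factor. The promoter table is in GRCm38.p6 and the peaks are in mm9. The length of Pcna from end to end is 3895 bp in the GRCm38.p6 gene table and 4153 bp in the authors' table. For Mcm6 these lengths are 28131 and 28066 bp, and its peak lies inside the gene in the authors' table. Whether either peak falls within its printed stretch is therefore unknown.

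Pcna, the sliding clamp, had the largest difference of the 10 genes (ENSMUSG00000027342, chromosome 2, 132074898 to 132079050, minus strand, mm9, the build of all gene and peak positions given). Its log2 CPM was 6.97, 7.08 and 7.05 in null replicates 1, 2 and 3, against 7.16, 7.30 and 7.48 in wild-type replicates 1, 2 and 3. Each null library was below each wild-type library, and the null libraries lay closer together. The means were 7.04 ± 0.06 in null and 7.31 ± 0.16 in wild type (SD, n = 3 each). The difference of -0.28 (SE 0.10, 95% interval -0.52 to -0.03, limma adjusted p = 0.755) is a change of -17.4% relative to wild type, with an interval of -30.2% to -2.36%. This gene did not pass once all 16634 genes were taken into account. Without null replicate 1, wild-type replicate 2 or wild-type replicate 3, its unadjusted p was no longer below 0.05 either, which left 0 of 10 members at that level.

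**Figure D1:**
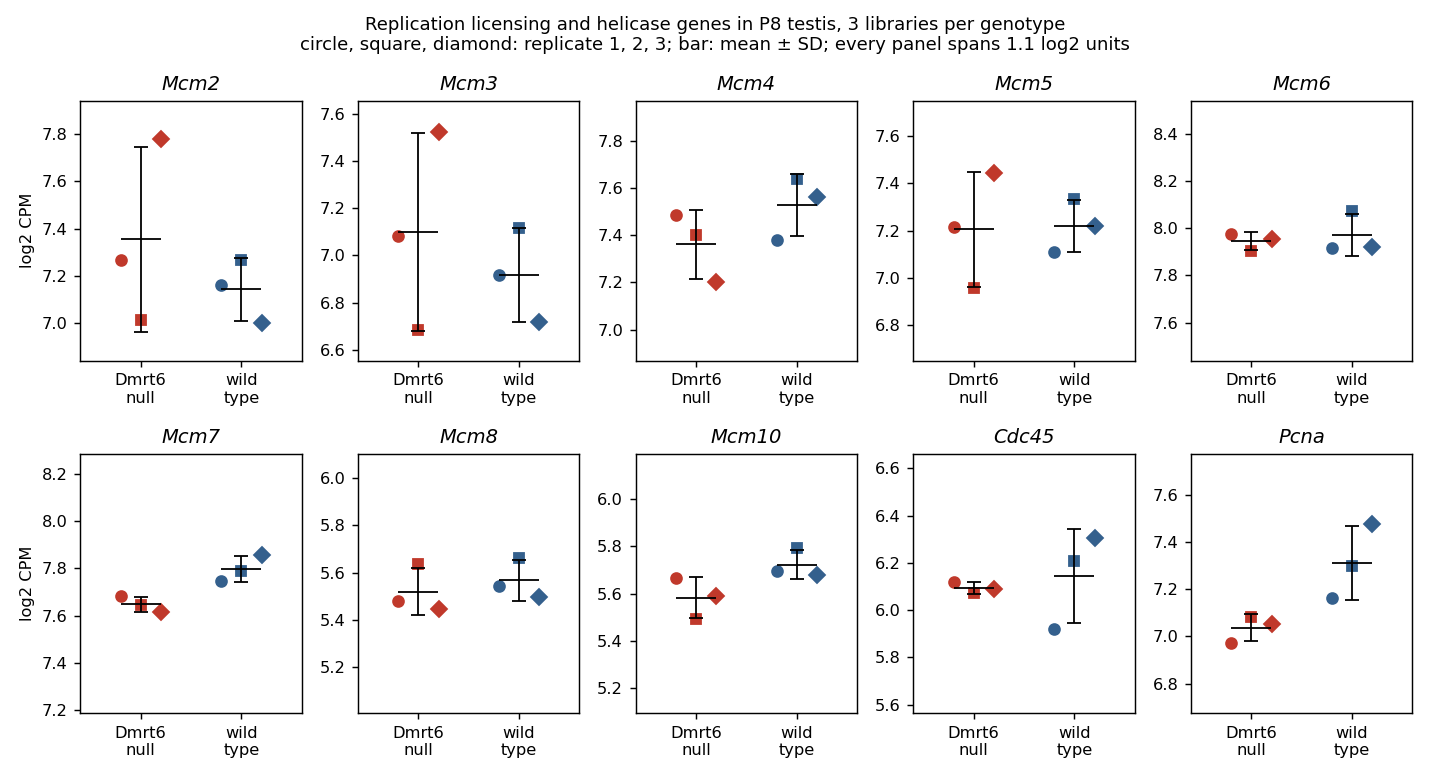
Expression of the 10 replication genes in log2 CPM, with the 3 Dmrt6 null libraries in red on the left of each panel and the 3 wild-type libraries in blue on the right, and with the mean and SD as bars. Null libraries sit wholly below wild type for Pcna, Mcm7 and Mcm10. Null replicate 3, the red diamond, is the highest of all 6 libraries for Mcm2, Mcm3 and Mcm5, and the lowest for Mcm4, Mcm7 and Mcm8.

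Mcm7, a core subunit of the ring, gave 7.68, 7.64 and 7.62 log2 CPM in the null libraries, against 7.75, 7.79 and 7.85 in the wild-type libraries. The groups did not overlap, but the gap between the nearest libraries was small beside the spread of other members. Its difference was -0.15 (SE 0.08, 95% interval -0.34 to 0.04, limma adjusted p = 0.755). Mcm7 (chromosome 5, 138605811 to 138613650, mm9) overlaps Ap4m1 by 421 bp and Cops6 by 64 bp on the opposite strand. Whether reads were counted by strand was not given in the sources used here, so part of its count may belong to those genes. Mcm7 is also the host gene of a microRNA cluster, which was not measured here.

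Mcm4 and Mcm6, the partners of Mcm7 in the ring's catalytic core, both had groups that overlapped. Mcm4 (chromosome 16, 15623990 to 15637493, minus strand) had 7.48, 7.40 and 7.20 log2 CPM in the null libraries, against 7.38, 7.64 and 7.56 in the wild-type libraries. Wild-type replicate 1 lay below both null replicates 1 and 2, and the difference was -0.17 (SE 0.11, 95% interval -0.42 to 0.09). Mcm6 (chromosome 1, 130228168 to 130256233, minus strand) had 7.98, 7.90 and 7.95 log2 CPM in the null libraries, against 7.92, 8.07 and 7.92 in the wild-type libraries. It was the steadiest member, spanning 0.17 log2 units over all 6 libraries, with a difference of -0.03 (SE 0.09, 95% interval -0.23 to 0.17), which turned to 0.03 without wild-type replicate 2.

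The remaining ring subunits Mcm2, Mcm3 and Mcm5 varied more among the null libraries than any other member. Mcm2 (chromosome 6, 88833469 to 88848774, minus strand) had 7.27, 7.01 and 7.78 log2 CPM in null replicates 1, 2 and 3, against 7.16, 7.27 and 7.001 in wild-type replicates 1, 2 and 3. Mcm3 (chromosome 1, 20793055 to 20810359, minus strand) had 7.08, 6.69 and 7.52 in the null libraries, against 6.92, 7.12 and 6.72 in the wild-type libraries. Null replicate 3 was the highest of the 6 libraries for both, while null replicate 2 was near or at the lowest. Mcm5 (chromosome 8, 77633427 to 77652338, plus strand) had 7.22, 6.96 and 7.44 in the null libraries, against 7.11, 7.33 and 7.22 in the wild-type libraries. It followed the same order among the null libraries over a narrower range. Null replicate 3 was the highest library for these 3 of the 10 members (30%), against 34.5% of all tested genes.

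The differences were 0.21 for Mcm2 (SE 0.19, 95% interval -0.22 to 0.64), 0.18 for Mcm3 (SE 0.21, -0.29 to 0.65) and -0.02 for Mcm5 (SE 0.14, -0.33 to 0.30). The first pair rested on null replicate 3: without it Mcm2 stood at -0.00 and Mcm3 at -0.03. The sign of Mcm5 also turned on single libraries, at 0.11 without null replicate 2 and 0.04 without wild-type replicate 2. These members had the widest intervals: relative to wild type, that of Mcm2 ran from -14.0% to 55.8% and that of Mcm3 from -18.3% to 57.4%.

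Set against the gene's own mean over the 6 libraries, Mcm2, Mcm3 and Mcm5 together deviated by 0.03, -0.27 and 0.43 log2 units in null replicates 1, 2 and 3, against -0.09, 0.08 and -0.18 in wild-type replicates 1, 2 and 3. Mcm4, Mcm6 and Mcm7 together deviated by 0.01, -0.06 and -0.12 in the null libraries, against -0.03, 0.13 and 0.07 in the wild-type libraries. The subunit groups therefore stood 0.54 log2 units apart in null replicate 3, and at most 0.25 apart in any other library. This grouping of subunits was chosen after the values were seen and was not tested.

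The mean over the Sertoli cell markers stood in the same order among the null libraries as Mcm2, Mcm3 and Mcm5. Of the 9 genes 7 did so singly, and the share of all tested genes in that order was not counted. The exceptions were Cldn11, at 8.03, 7.42 and 7.95 log2 CPM in null replicates 1, 2 and 3, and Fshr, at 5.65, 5.47 and 5.42, whose lowest value of all 6 libraries was in null replicate 3. The mean deviation of the 9 Sertoli genes found, among them Sox9, Amh and Wt1, was 0.12, -0.42 and 0.55 in null replicates 1, 2 and 3, against 0.00, -0.05 and -0.21 in wild-type replicates 1, 2 and 3. Their summed level spanned 842 to 1585 CPM in null, against 986 to 1091 CPM in wild type. The germ cell list had the same order, at 0.05, -0.02 and 0.22 in the null libraries, against -0.12, 0.00 and -0.14 in wild type. So did the means of the licensing, helicase activation, fork and nucleotide supply lists described below. The order of list means was thus not particular to Sertoli genes, while the G2 and mitosis list and the other cell type lists did not have it. Single genes often went otherwise. Of the 46 genes in the licensing, helicase activation and fork lists, null replicate 3 was the highest library for 10 (21.7%) and the lowest for 19 (41.3%). Of the 10 members it was the highest for 3 and the lowest for 3. Null replicate 3 was the highest or the lowest library for 34.5% and 34.0% of all tested genes. The part of cell makeup, or of that library, in the subunit pattern was not tested.

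**Figure D2:**
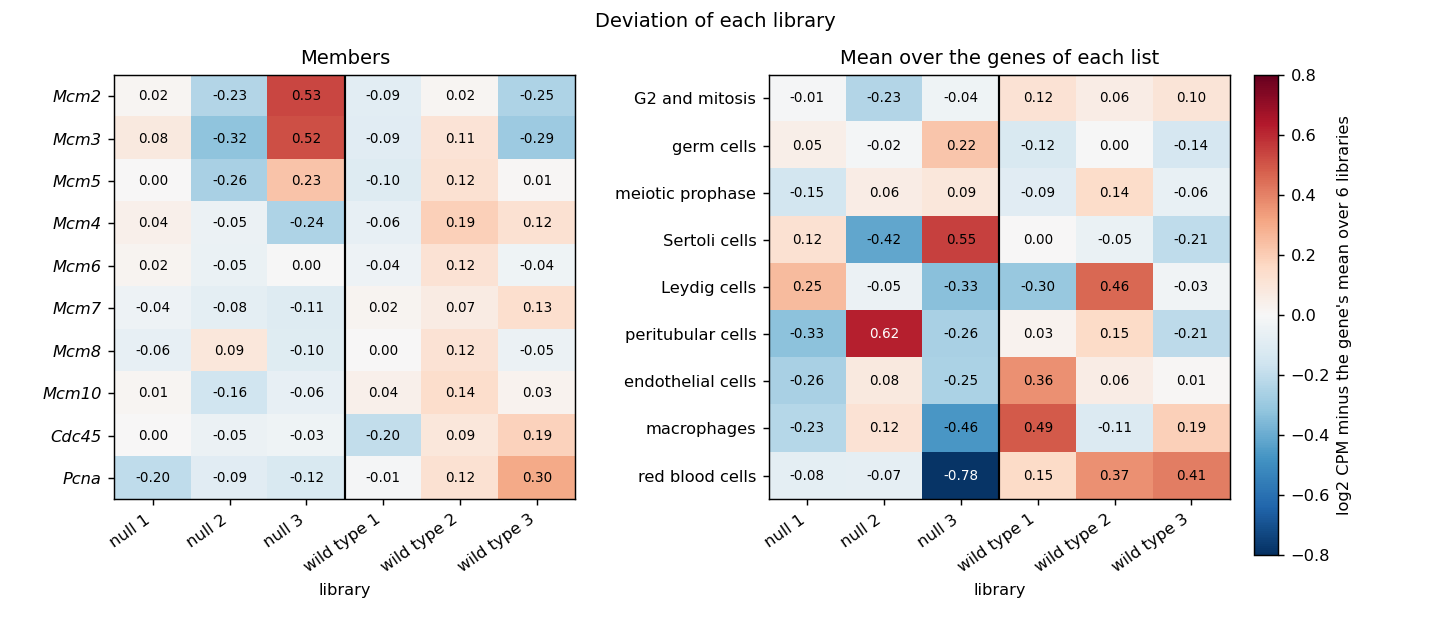
Deviation of each library from the mean over 6 libraries in log2 units, for each replication gene on the left and as a mean over each marker list on the right, with Dmrt6 null libraries left of the black line and wild-type libraries right of it. In null replicate 3 Mcm2 and Mcm3 stand at 0.53 and 0.52 and the Sertoli list at 0.55, while Mcm4 stands at -0.24 and the red blood cell list at -0.78.

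The factors that act on or beside the ring differed little. Mcm10 (chromosome 2, 4910760 to 4933837, minus strand), which helps to start the loaded helicase, had 5.67, 5.49 and 5.59 log2 CPM in the null libraries, against 5.70, 5.79 and 5.68 in the wild-type libraries. The groups just failed to overlap, between 5.67 in null replicate 1 and 5.68 in wild-type replicate 3, and the difference was -0.14 (SE 0.10, 95% interval -0.38 to 0.10). Cdc45 (chromosome 16, 18780540 to 18812080, minus strand), the helicase's partner, had 6.12, 6.07 and 6.09 in the null libraries, against 5.92, 6.21 and 6.31 in the wild-type libraries. The null values sat inside the wild-type range. The difference of Cdc45 was -0.05 (SE 0.12, 95% interval -0.33 to 0.23), it overlaps Ufd1l by 209 bp on the opposite strand, and without wild-type replicate 3 it was 0.03.

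Mcm8 (chromosome 2, 132641877 to 132669933, plus strand), the recombination helicase, had 5.48, 5.63 and 5.45 log2 CPM in the null libraries, against 5.54, 5.66 and 5.50 in the wild-type libraries. Its groups overlapped, and the difference was -0.05 (SE 0.11, 95% interval -0.30 to 0.20, limma adjusted p = 0.877). Without wild-type replicate 2 that difference was 5.3e-05. Every member was well counted, the smallest count being 1112 reads, for Mcm8 in wild-type replicate 1. The median SD between libraries was 0.09 in null and 0.12 in wild type over the members. Over all tested genes, which include less well counted ones, it was 0.22 in null and 0.13 in wild type. In null, Mcm2, Mcm3 and Mcm5 exceeded the value of all tested genes, at 0.39, 0.42 and 0.24, and the other members did not. CPM is not scaled by gene length, so levels of different members are not ranked here.

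The mean profile of the 10 members over the 6 libraries was most like those of Timm50, Zmynd19 and Tmem62. Likeness was the mean absolute difference between a gene's deviations and the members' mean deviations, among 15411 other genes that varied at least as much as that mean profile. It was 0.021 log2 units for Timm50, which encodes part of the mitochondrial inner membrane import machinery, 0.023 for Zmynd19 and 0.024 for Tmem62. Single members lay farther away, from 0.039 for Mcm6 to 0.18 for Mcm3, so the mean profile stands for none of them well. The profile itself is shallow: -0.01, -0.12 and 0.06 in null replicates 1, 2 and 3, against -0.05, 0.11 and 0.02 in wild-type replicates 1, 2 and 3.

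The rest of the replication machinery showed small negative differences more often than positive ones. Of 46 other tested genes for origin recognition and licensing control, helicase activation, and polymerases, clamp loading and the fork, 32 were below 0 and 14 above, with a median of -0.10, and 48.3% of all tested genes were below 0. limma-trend and voom each called 0 of the 46, and 4 had an unadjusted limma p below 0.05, against 3.47% of all tested genes. The null libraries lay wholly below wild type for 12 of the 46 and wholly above for 0, against the 6.02% and 5.06% of all tested genes given above. Without null replicate 1 the counts were 15 below and 0 above, where all tested genes gave 11.2% and 9.54%. Without null replicate 2 they were 17 below and 4 above, where all tested genes gave 18.4% each way. Without null replicate 3 they were 15 and 0, where all tested genes gave 8.40% and 8.49%.

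**Figure D3:**
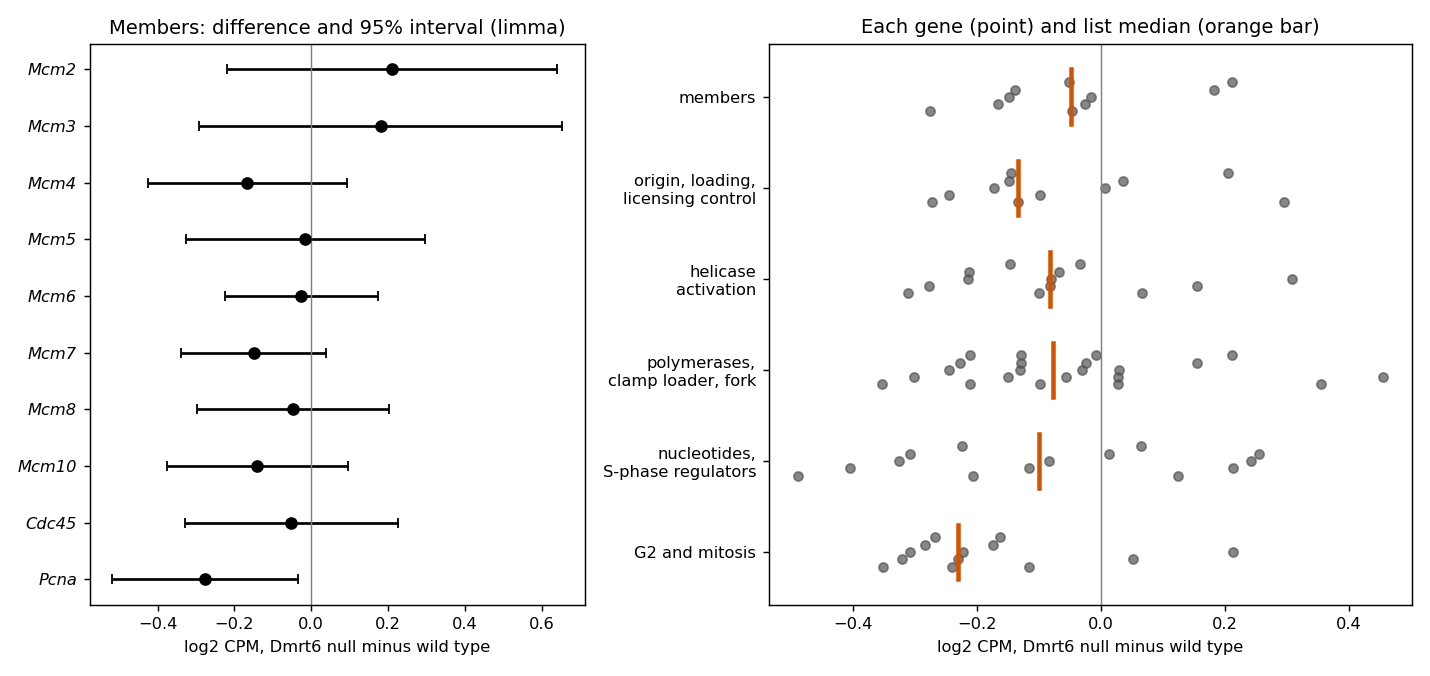
Difference in log2 CPM, Dmrt6 null minus wild type, for each of the 10 replication genes with its 95% interval from limma (left), and for every gene of 6 lists as points with the list median as an orange bar (right). The list medians run from -0.23 for G2 and mitosis to -0.05 for the members, and the interval of Pcna alone among the members lies wholly below 0.

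Among licensing factors, 7 of 11 were below 0, with a median of -0.13. Orc6, a subunit of the origin recognition complex, had 5.98, 6.01 and 5.76 log2 CPM in the null libraries, against 6.13, 6.17 and 6.26 in the wild-type libraries, a difference of -0.27 (SE 0.11, limma adjusted p = 0.755). Gmnn encodes geminin, the protein that holds CDT1 back after licensing, and differed by -0.25 (SE 0.10), again with no overlap. Its target Cdt1 had 4.18, 3.71 and 5.35 in the null libraries, against 4.34, 4.29 and 3.73 in the wild-type libraries. The highest value of Cdt1 was in null replicate 3, as for Mcm2 and Mcm3, while the lowest of Orc6 was there. Of the 46 other replication genes, that library was the highest for 10 (21.7%) and the lowest for 19 (41.3%). The shares of all tested genes were 34.5% and 34.0%. Cdt1 differed by 0.29 (SE 0.39), and Mcmbp, which binds MCM subunits, by 0.20 (SE 0.13).

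Of 13 genes of helicase activation 10 were below 0, with a median of -0.08. Tipin, a fork protection factor, differed by -0.31 (SE 0.12) and the GINS subunit gene Gins4 by -0.22 (SE 0.10), both without overlap between groups. Recql4, a helicase that takes part in initiation, had 4.70, 4.71 and 5.64 log2 CPM in the null libraries, against 4.72, 4.71 and 4.71 in the wild-type libraries, so that null replicate 3 alone stood apart, and the difference was 0.31 (SE 0.24). Timeless, the partner of Tipin, likewise stood at 6.12 in that library, with 5.45 and 5.18 in the other null libraries, against 5.30 to 5.53 in wild type, and differed by 0.15 (SE 0.22). None of these passed the test.

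Of 22 polymerase, clamp loader and fork genes 15 were below 0, with a median of -0.08. The primase gene Prim1 had 5.76, 5.74 and 5.47 log2 CPM in the null libraries, against 5.96, 6.02 and 6.05 in the wild-type libraries, a difference of -0.35 (SE 0.11, limma adjusted p = 0.755). Pola1, the catalytic subunit of the polymerase that primase works with, differed by -0.21 (SE 0.09). Both had no overlap between the groups. Fen1, the flap nuclease that acts with PCNA on the lagging strand, differed by 0.36 (SE 0.21) and Pold2 by 0.21 (SE 0.13), and the groups overlapped for both.

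Genes that supply nucleotides and regulate S phase divided 8 below 0 and 6 above, with a median of -0.10. Rrm2, a subunit of ribonucleotide reductase, differed by -0.49 (SE 0.13) and Tk1, thymidine kinase, by -0.41 (SE 0.12), while the phosphatase gene Cdc25a was at 0.25 (SE 0.19) and the transcription factor gene E2f1 at 0.24 (SE 0.24). Genes of G2 and mitosis had the lowest median of these lists, -0.23, with 11 of 13 below 0. There Kif11 differed by -0.31 (SE 0.09) and Ccnb2 by -0.35 (SE 0.12), whereas Foxm1 was at 0.21 (SE 0.30) and Plk1 at 0.05 (SE 0.26). In limma 0 of the 14 and 0 of the 13 passed, and voom called 0 in both lists. An unadjusted limma p below 0.05 was reached by 4 and 6 of them, against 3.47% of all tested genes. The null libraries lay wholly below wild type for 4 of the 14 and 7 of the 13, against 6.02% of all tested genes. They lay wholly above for 0 in both lists, against 5.06%, so the pattern was not particular to the replication genes. The mean deviation of the G2 and mitosis list was -0.01, -0.23 and -0.04 in the null libraries, and 0.12, 0.06 and 0.10 in the wild-type libraries.

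The marker lists of the testis's cell types had medians on either side of 0, and their part in the replication genes' values was not tested. Of 7 macrophage genes 7 were below 0 with a median of -0.33, and their summed level was 80.4 to 111 CPM in null, against 91.1 to 137 CPM in wild type. Of 5 red blood cell genes 5 were below 0 with a median of -0.66, and the sums were 717 to 1255 CPM in null and 1477 to 1776 CPM in wild type. The medians were -0.34 for 5 endothelial genes, -0.28 for 6 Leydig genes, -0.04 for 5 peritubular genes, -0.03 for 8 meiotic prophase genes, 0.11 for 10 germ cell genes and 0.19 for the 9 Sertoli genes. The germ cell genes summed to 1499 to 1655 CPM in null and 1409 to 1557 CPM in wild type. The labelled tissue was thus seen in every library. The smallest adjusted p of any marker gene was 0.755 in limma.

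In adult testis a DMRT6 peak had its middle within 10 kb of the 5' end of 3 of the 10 members, Pcna, Mcm6 and Mcm4, against 31.2% of all tested genes. For all 3 the nearest peak was within 1 kb, against 16.0% of all tested genes. The share of members within 10 kb, 30%, is near that background, and the same share within 1 kb rests on 3 genes and was not tested. The score is the authors' own value, ran from 50.02 to 3100 over the list with a median of 94.7, and has no stated scale.

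The peak at Pcna spans 132078926 to 132079152 on chromosome 2 in mm9, with its middle 11 bp inside the gene's 5' end and a score of 94.0. A second lies 5.65 kb downstream of the 5' end, past the gene's far end, with a score of 75.3, and another 9.91 kb upstream with a score of 58.1. Pcna thus has 3 of the 5 peaks within 10 kb of any member. Its 5' end is 43 bp from that of AV099323, a transcript on the other strand with 34, 25 and 21 reads in the null libraries, against 39, 36 and 24 in the wild-type libraries.

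The peaks at Mcm6 and Mcm4 had scores near the lowest of the list. At Mcm6 the peak spans 130256100 to 130256233 on chromosome 1, 66.5 bp inside the 5' end to its middle, with a score of 54.3, and 95.4% of all peaks score higher. At Mcm4 it spans 15637532 to 15637681 on chromosome 16, 113.5 bp upstream, with a score of 52.2, and 97.4% of peaks score higher. That peak lies between the 5' ends of Mcm4 and Prkdc, which stand 466 bp apart on opposite strands. Prkdc encodes the catalytic subunit of the DNA-dependent protein kinase. It had 7.30, 7.29 and 7.03 log2 CPM in the null libraries, against 7.08, 7.25 and 7.23 in the wild-type libraries, with overlapping groups and a difference of 0.02 (SE 0.11).

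The other 7 members had no peak within 10 kb. The nearest peak lay 14.7 kb from Mcm7, 32.5 kb from Mcm10, 50.2 kb from Mcm5, 57.0 kb from Mcm2, 60.8 kb from Mcm8, 175 kb from Cdc45 and 273 kb from Mcm3. Mcm7 also had, 22.8 kb downstream of its 5' end and outside the gene, a peak with a score of 2448, which ranked 13 of 14862. The peaks rest on 1 ChIP library without a replicate, and the adult tissue holds later germ cells than the P8 tissue in which expression was measured. Of the 46 other replication genes 18 had a peak within 10 kb and 12 within 1 kb, which is 39.1% and 26.1%. Those with the middle closest to the 5' end were Pold3 at 2.5 bp, Topbp1 at 12.5 bp and Rpa3 at 18.0 bp, named after their distances were seen.

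**Figure D4:**
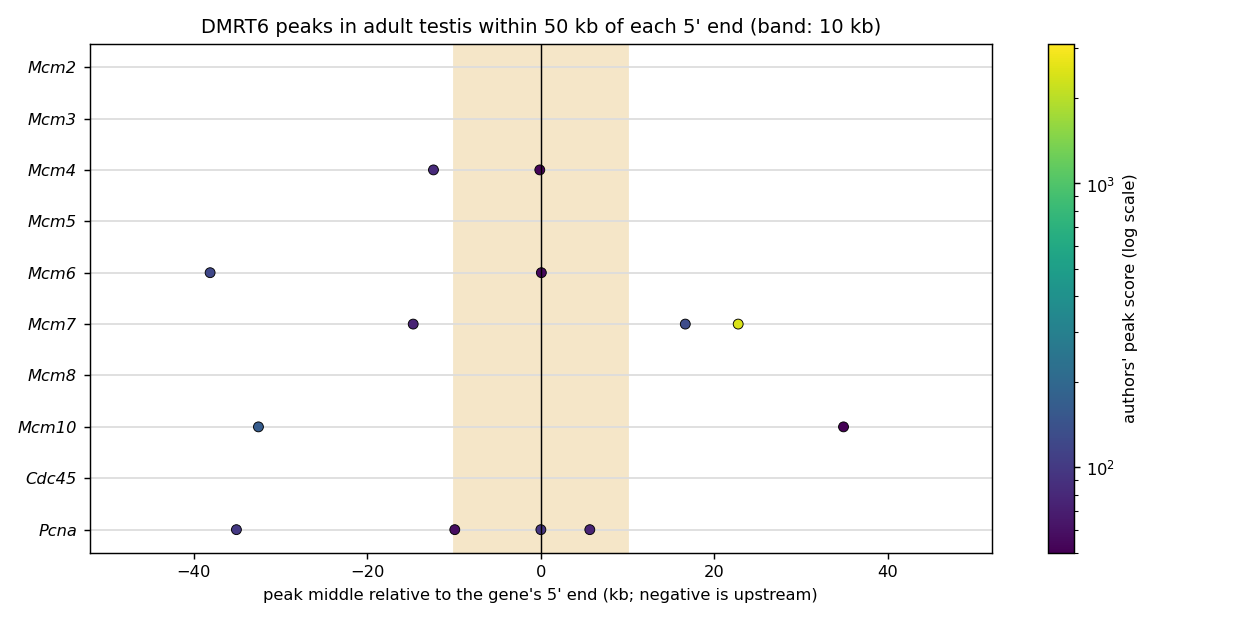
Position of each DMRT6 peak middle within 50 kb of the 5' ends of the 10 replication genes, in kb along the direction of transcription, coloured by the authors' score on a log scale, with the 10 kb window shaded. Pcna has 3 peaks in the window, Mcm6 and Mcm4 have 1 each, and the high-scoring peak at 22.8 kb in the row of Mcm7 lies outside the gene.

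The members with and without a peak within 10 kb had overlapping ranges of difference in the P8 testis, given here as a description with no test. Pcna, Mcm4 and Mcm6, which have one, stood at -0.28, -0.17 and -0.03, and the 7 without one ran from -0.15 for Mcm7 to 0.21 for Mcm2. Of the genes whose null libraries lay wholly below wild type, Pcna had a peak at its start and Mcm7 and Mcm10 had none within 10 kb.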

How the data were processed

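RNA-seq values are log2 CPM per Ensembl gene, deposited by the authors in 1 table with mm9 coordinates. STAR 2.3.0e, Bowtie2, Picard and edgeR are named without roles in the submitters' processing notes, and the counter, annotation and strand setting are not given. Above a shared floor the values rose in steps of 1 size per library, from which whole reads were recovered (100% of values at a tolerance of 1e-06, prior 0.25 reads on average). A count of 0 allows 3 reads, or 0.103 to 0.126 CPM, counting error only. Peaks carry a score given by the authors and were called on 1 ChIP library with 1 input library, and the deposited file's name gives MACS 1.4.

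Genes with a mean log2 CPM of at least 0 entered limma-trend (limma 3.58.1, R 4.3.3) with 1 term, genotype, and Benjamini-Hochberg adjustment over all 16634 genes. A gene was called at an adjusted p below 0.05. The script was tested on simulated data. An exact permutation test of 3 against 3 cannot go below p = 0.1, so none was run. A gene's 5' end is its start or, on the minus strand, its end in the authors' table. The members, the lists, the tests and the other settings were chosen with earlier results of these data known. Named genes are Dmrtb1, all members, up to 2 genes of smallest p per direction in each replication list, and the 3 most alike in profile. Other genes named were picked after their values were seen or mark a cell type. Of the Sertoli list, Rhox5 was not matched and was not used. edgeR was not used here, since the table holds log values. Array weights used the gene-by-gene method because the default did not converge.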

Additional observations from a re-analysis of the deposited data

How the results depend on the processing

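The count of genes called in limma was 1, and became 3 with no filter on low values, 0 with a minimum mean log2 CPM of 2, 3 with median centring, 2 with quantile normalization, 8 with array weights and 2 with the replicate number as a replicate block, and was 0 to 5 with 1 library left out. No member and no gene of the 5 other replication and cell cycle lists passed under any of these 14 alternatives, and the block changed no call of theirs. The labels number the replicates of both genotypes alike, but same-numbered libraries did not deviate together (correlations of -0.09, -0.22 and -0.04). With 3 libraries per group these values cannot show whether same-numbered libraries shared a batch, and the labels do not say. Over 140 fits of single members the adjusted p ran from 0.324 to 1, and the sign differed from the reported one in 7, all with a library left out. The leave-one-out ranges were -0.0025 to 0.38 for Mcm2, -0.032 to 0.39 for Mcm3, -0.14 to 0.11 for Mcm5, -0.053 to 0.026 for Mcm6, -0.10 to 5.3e-05 for Mcm8 and -0.16 to 0.029 for Cdc45. Mcm4, Mcm7, Mcm10 and Pcna kept their sign throughout, Pcna at -0.35 to -0.19. The members with an unadjusted limma p below 0.05 nevertheless numbered 0 in place of 1 under the replicate block and in 3 of the 6 leave-one-out fits. Median centring and quantile normalization moved the median of all genes by -0.05 and -0.03. The members with a peak numbered 5 within 50 kb, where 64.2% of tested genes had one, and 0 for peaks scoring at least 100, where 16.1% had one. The counts of groups without overlap were repeated without each null library after the data were seen. They gave 3 to 4 members and 15 to 17 other replication genes wholly below wild type, while the share of all tested genes was 8.40% to 18.4% in place of 6.02%. ChIP depth is unknown.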
